A study of Bos taurus with 24 samples.

Results

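The genes described here encode 10 enzymes and receptors of prostaglandin synthesis, signalling and breakdown: PLA2G4A, PTGS1, PTGS2, PTGES, PTGES2, PTGES3, PTGIS, PTGER2, PTGER4 and HPGD. They were picked by gene name from the 27570 genes of the day 4 table, and all 10 were joined to the day 7 table by gene identifier. The higher PTGS2 level with oleic acid at day 4 was in view when the genes were picked. The day 4 comparisons of oleic acid with control and with palmitic acid are therefore given as a description, without a printed p-value. Counts of members passing in them appear further down as a record only, and nothing is read from them.

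Prostaglandins are short-lived lipid signals made from arachidonic acid. The cytosolic phospholipase PLA2G4A frees arachidonic acid from membrane phospholipids, and the cyclooxygenases PTGS1, present in many cells at rest, and PTGS2, induced by inflammatory signals, turn it into prostaglandin H2. PTGES, PTGES2 and PTGES3 convert prostaglandin H2 to prostaglandin E2, PTGIS converts it to prostacyclin, the receptors PTGER2 and PTGER4 answer prostaglandin E2 by raising cyclic AMP, and HPGD inactivates prostaglandins by oxidation. In adipose tissue these lipids are known as regulators of lipolysis, of inflammation and of preadipocyte differentiation.

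RNA was sequenced from cultured subcutaneous preadipocytes of 6 Holstein cows, induced to form adipocytes in serum-containing medium that held troglitazone (a PPARG agonist), insulin and acetate in every group. Isobutylmethylxanthine and dexamethasone were present in every group at the start of induction. CON cells had no added fatty acid, PA cells received palmitic acid (saturated), OA cells oleic acid (monounsaturated) and MIX cells both, as 60% PA and 40% OA, with 300 µM of fatty acid in total in each of these 3 groups. Cells of cows 4, 5 and 6 were treated during induction and collected at day 4, cells of cows 1, 2 and 3 were treated after induction and collected at day 7, and each of the 8 groups held 1 library from each of its 3 cows. The label does not make clear whether day 7 counts from the start of induction or of treatment. Day and animal cannot be told apart, the ages of the cows are unknown here, and p-values measure the spread between libraries of 3 cows.

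Day 4 libraries held 13509548 to 17071654 counts, and day 7 libraries 14118798 to 24008811 reads. Levels below are FPKM as deposited, fragments scaled by gene length and library size. The label calls the cells adipocytes. Of 9 adipocyte markers found, FABP4 averaged 30.3 FPKM at day 4 and 0.405 at day 7, and ADIRF 6.80 and 2.64. PPARG averaged 3.07 and 0.230 FPKM, PLIN1 1.85 and 1.05, and the adipocyte hormone gene ADIPOQ 0.0148 and 0. LPL, CIDEC, PLIN4 and LEP averaged below 1 FPKM at both days. The fibroblast collagen gene COL1A1 averaged 3671 and 6494 FPKM, while CD34, DPP4 and DLK1 of the fibroblast list averaged below 1 FPKM. The leukocyte antigen gene PTPRC averaged 0.00138 and 0.00344 FPKM. In such bulk samples, fewer cells of a type and less RNA per cell cannot be told apart.

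All but the receptor genes and HPGD had at least 98 reads in every library, and PTGS1 was the most abundant of the 10 at day 4. PTGS1 averaged 94.7 ± 37.1 FPKM at day 4 (SD, n = 12 libraries of 3 cows), beside 89.3 ± 9.42 for PTGES3, 68.2 ± 14.9 for PTGIS and 45.9 ± 8.85 for PTGES. PTGS2 followed at 11.1 ± 3.63 FPKM, with PLA2G4A at 6.40 ± 0.993 and PTGES2 at 6.0 ± 2.05. HPGD averaged 4.16 ± 5.02 FPKM, PTGER4 1.12 ± 0.555 and PTGER2 0.274 ± 0.202. PTGER2, the prostaglandin E2 receptor EP2, rested on 0 to 30 reads per library, with OA of cow 6 at 0 reads, which at the depth of that library allows a level of up to 0.190 CPM (3 counts). Each pair of neighbours in this order overlapped in their libraries, except PTGES and PTGS2.

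At day 7 the order differed at the top. PTGES3 led with 59.6 ± 2.03 FPKM, followed by PTGES with 50.7 ± 14.4, PTGIS with 34.7 ± 16.4 and PTGS1 with 27.3 ± 18.8 FPKM. The lower 6 kept the order they had at day 4, from PTGS2 at 7.97 ± 6.48 FPKM through PLA2G4A at 7.00 ± 2.73, PTGES2 at 6.01 ± 1.43, HPGD at 5.50 ± 7.48 and PTGER4 at 3.03 ± 1.05 to PTGER2 at 0.185 ± 0.148. Each pair of neighbours overlapped in their libraries, except PTGER4 and PTGER2. Levels were not tested between days, since the tables were normalised separately and the cows differed.

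**Figure D1:**
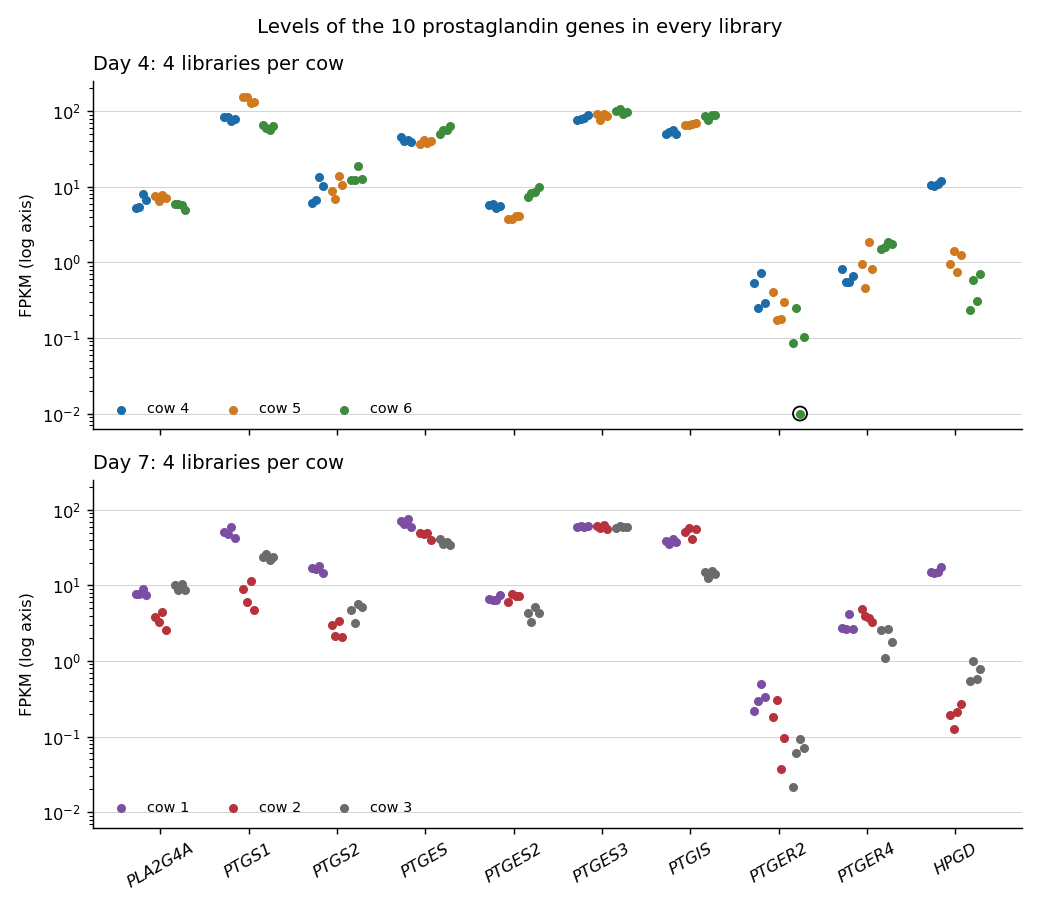
Level of each gene in each library (FPKM, log axis), day 4 above and day 7 below, coloured by cow, with the 4 libraries of a cow side by side in the order CON, PA, OA, MIX. The ringed point is the library with PTGER2 at 0, drawn at the lower edge of the scale; HPGD of cow 4 and cow 1 lies above 10 FPKM while every other HPGD library lies below 1.5 FPKM.

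PLA2G4A, the enzyme of the first step, differed from CON at day 4 in ways that were not alike across cows. Its levels in cows 4, 5 and 6 were 5.30, 7.51 and 5.96 FPKM in CON, 5.47, 6.41 and 6.0 in PA, 7.91, 7.71 and 5.75 in OA, and 6.64, 7.21 and 4.95 in MIX. The groups overlapped, and OA was above CON in cows 4 and 5 but not in cow 6. With cow as a block, the log2 difference of OA from CON was 0.19 ± 0.12 (SE), and of OA from PA 0.25 ± 0.12.

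At day 7 the PLA2G4A levels in cows 1, 2 and 3 were 7.67, 3.88 and 10.1 FPKM in CON, 7.68, 3.26 and 8.60 in PA, 8.92, 4.49 and 10.4 in OA, and 7.52, 2.57 and 8.83 in MIX. Within each cow OA was the highest of the 4, and the spread between cows exceeded that between treatments. The log2 difference of OA from PA was 0.27 ± 0.09, higher in 3 of 3 cows, and that of MIX from OA was -0.35 ± 0.09, lower in 3 of 3 cows. Neither passed in limma with cow as a block (adjusted p = 0.333 and 0.334).

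PTGS2 was the member whose level set OA apart at day 4. In cows 4, 5 and 6 it stood at 6.14, 8.73 and 12.4 FPKM in CON and at 6.64, 6.93 and 12.2 FPKM in PA. It stood at 13.7, 13.7 and 18.6 FPKM in OA and at 10.3, 10.6 and 12.8 FPKM in MIX. Every OA library lay above all 9 libraries of the other treatments, CON and PA overlapped, and MIX lay between CON and OA in each cow. These levels rested on 338 to 947 reads per library.

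The OA to CON ratio of PTGS2 within a cow ran from 1.51 to 2.23, and the OA to PA ratio from 1.52 to 2.06. On the log2 scale, with cow as a block, OA differed from CON by 0.78 ± 0.11 and from PA by 0.87 ± 0.11. MIX differed from CON by 0.34 ± 0.11 (edgeR, cow as a block, adjusted p = 0.994) and from PA by 0.43 ± 0.11 (adjusted p = 1.00), higher in 3 of 3 cows in both. MIX differed from OA by -0.44 ± 0.11 (adjusted p = 1.00), lower in 3 of 3 cows, and it shares the OA libraries that were in view when the genes were picked. PA and CON differed by -0.08 ± 0.12 (adjusted p = 1.00), an interval that spans zero. The CON and PA libraries were in view as well, so none of these comparisons is independent of the choice of genes.

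Macrophages are a known source of PTGS2, so their markers are given beside it. Of 10 macrophage and leukocyte markers, 1 to 3 reached 1 FPKM in a library, with CD14 and CD68 the highest and MS4A1 at 0 in every day 4 library. At day 4 CD14 averaged 6.02 FPKM, CD68 4.48, AIF1 0.966 and CSF1R 0.0987, and the rest of the list less than CSF1R, with PTPRC at 0.00138. The sum of the list therefore follows CD14 and CD68 for the most part. Their summed level at day 4 was 10.2 to 11.3 FPKM in CON, 9.96 to 12.6 in PA, 10.6 to 14.8 in OA and 10.7 to 14.3 in MIX. The groups overlapped, but within each of the 3 cows the sum was higher in OA than in CON, at 10.6 against 10.2, 14.8 against 11.3 and 11.6 against 10.9 FPKM for cows 4, 5 and 6. MIX was above CON in cows 4 and 5 and level with it in cow 6 (10.9 FPKM in both). Against PA, OA was higher in cows 4 and 5 and lower in cow 6. Whether such cells were present, and their part in the PTGS2 difference, was not tested.

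At day 7 PTGS2 followed the cow more than the treatment. In cows 1, 2 and 3 it stood at 17.3, 3.01 and 4.78 FPKM in CON, 16.5, 2.16 and 3.17 in PA, 18.0, 3.41 and 5.72 in OA, and 14.4, 2.06 and 5.16 in MIX. The 4 groups overlapped fully, cow 1 was above the other cows in every treatment, and OA was the highest treatment within each cow. The log2 difference of OA from CON was 0.14 ± 0.13 (adjusted p = 0.777 in limma with cow as a block), and of OA from PA 0.43 ± 0.13 (adjusted p = 0.321), both higher in 3 of 3 cows. PA lay below CON in 3 of 3 cows, by -0.29 ± 0.13 (adjusted p = 0.998). In cow 1 the macrophage and leukocyte list summed to 23.6 to 26.5 FPKM, against 3.94 to 11.3 in cows 2 and 3. CD14 and CD68 again led the list at day 7, at means of 10.5 and 2.43 FPKM, with PTPRC at 0.00344. The part of such cells in the level of PTGS2 was not tested.

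**Figure D2:**
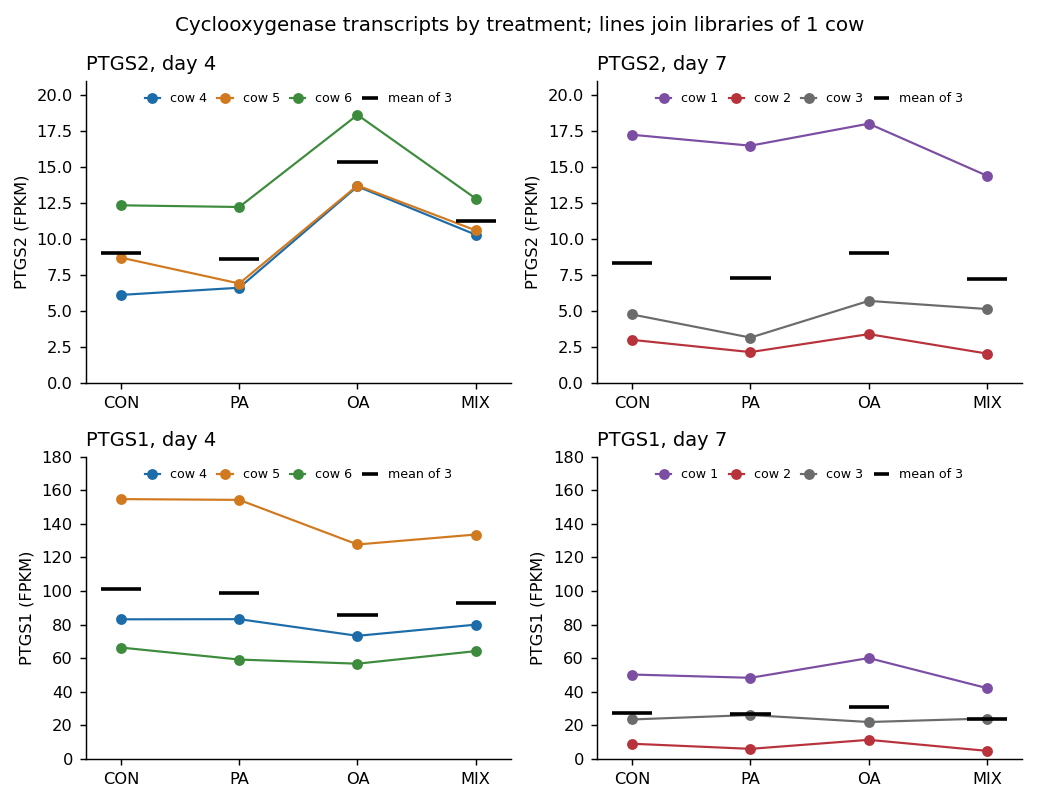
PTGS2 (upper) and PTGS1 (lower) in FPKM by treatment at day 4 (left) and day 7 (right); points are libraries, lines join the 4 libraries of 1 cow and black bars are means of 3 cows. At day 4 PTGS2 peaks in OA in all 3 cows, at 13.7 to 18.6 FPKM, while PTGS1 is lowest in OA; at day 7 the cows lie farther apart than the treatments.

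PTGS1, the other cyclooxygenase, had its lowest values in OA at day 4. In cows 4, 5 and 6 it stood at 83.2, 155 and 66.3 FPKM in CON and at 83.2, 154 and 59.2 FPKM in PA. It stood at 73.3, 128 and 56.7 FPKM in OA and at 80.0, 134 and 64.2 FPKM in MIX. This held within each of the 3 cows, but the spread between cows made all 4 groups overlap. The log2 difference of OA from CON was -0.24 ± 0.07, and from PA -0.18 ± 0.07. MIX differed from CON by -0.11 ± 0.07 (edgeR, cow as a block, adjusted p = 0.994), lower in 3 of 3 cows.

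At day 7 PTGS1 stood at 50.3, 9.03 and 23.5 FPKM in CON, 48.3, 6.0 and 26.1 in PA, 60.1, 11.4 and 22.0 in OA, and 42.2, 4.79 and 24.1 in MIX, for cows 1, 2 and 3. OA was the highest treatment in cows 1 and 2 and the lowest in cow 3, and the groups overlapped. The log2 difference of OA from PA was 0.30 ± 0.19 and that of MIX from OA -0.49 ± 0.19 (limma, cow as a block, adjusted p = 0.584 and 0.436).

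The balance of the cyclooxygenases was read as the percent of PTGS2 in the summed FPKM of PTGS1 and PTGS2. At day 4 in cows 4, 5 and 6 it was 6.87, 5.34 and 15.7% in CON, 7.38, 4.30 and 17.1% in PA, 15.7, 9.71 and 24.7% in OA, and 11.4, 7.36 and 16.7% in MIX. OA had the largest share within each cow, and the groups overlapped because cow 6 had a larger share than cows 4 and 5 in every treatment. PTGS1 transcripts still outnumbered those of PTGS2 per unit length in every library. The summed FPKM of both was 71.4 to 163 at day 4. In cows 4, 5 and 6 it was 89.3, 163 and 78.7 in CON against 87.0, 141 and 75.4 in OA.

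At day 7 the PTGS2 share was 10.8 to 30.1% over the 12 libraries. In cows 1, 2 and 3 it was 25.6, 25.0 and 16.9% in CON, 25.5, 26.5 and 10.8% in PA, 23.1, 23.1 and 20.7% in OA, and 25.5, 30.1 and 17.6% in MIX. OA had the lowest share in cows 1 and 2 and the highest in cow 3. The share thus had no common order of treatments across the day 7 cows.

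**Figure D3:**
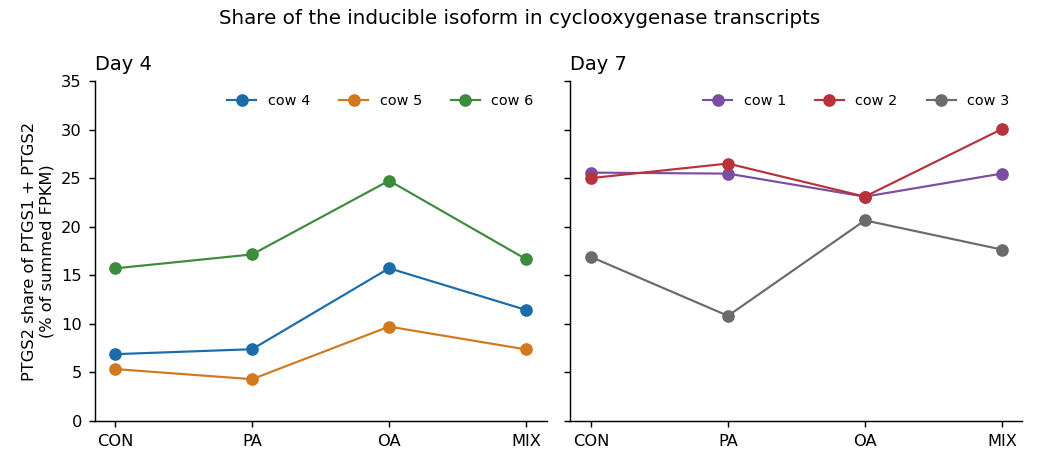
PTGS2 as a percent of the summed FPKM of PTGS1 and PTGS2 in each library at day 4 (left) and day 7 (right), with lines joining the libraries of 1 cow. At day 4 the share is largest in OA in each cow, up to 24.7%, and at day 7 it has no common order across cows.

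The prostaglandin E2 synthases were close to level across treatments at day 4. PTGES, the inducible membrane enzyme, averaged 43.9 ± 6.74 FPKM in CON, 46.5 ± 9.16 in PA, 45.5 ± 10.3 in OA and 47.8 ± 13.6 in MIX (SD, n = 3). PTGES3, the cytosolic synthase that is also a cochaperone of HSP90, lay between 76.8 and 106 FPKM in all 12 libraries, and PTGES2 between 3.69 and 9.83 FPKM. Treatment differences from CON with cow as a block had absolute log2 values of at most 0.18 for these genes, the MIX difference of PTGES2 being 0.18 ± 0.12 (edgeR, adjusted p = 0.994).

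At day 7 PTGES had its lowest values in MIX. In cows 1, 2 and 3 it stood at 71.6, 48.8 and 41.3 FPKM in CON, 66.0, 48.2 and 35.5 in PA, 76.1, 49.5 and 37.3 in OA, and 60.2, 39.9 and 34.4 in MIX. MIX was the lowest treatment within each cow, although the groups overlapped. MIX differed from CON by -0.26 ± 0.06 and from OA by -0.25 ± 0.06 on the log2 scale, and neither passed in limma with cow as a block (adjusted p = 1.00 and 0.299).

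PTGES3 was the steadiest gene of the set at day 7, with 56.6 to 63.7 FPKM over 12 libraries. Its treatment differences from CON were at most 0.04 ± 0.05 in size. PTGES2 lay between 3.29 and 7.72 FPKM at day 7. PTGIS, the prostacyclin synthase, lay between 49.4 and 89.1 FPKM at day 4 and between 12.6 and 56.9 FPKM at day 7. Its levels kept to the cow: at day 7 cow 3 had 12.6 to 15.7 FPKM and the other cows 35.8 to 56.9 FPKM. Relative to PTGIS, PTGES reached 0.557 to 0.908 of its FPKM in the day 4 libraries and 0.714 to 2.82 in those of day 7.

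The receptors had the lowest means of the set, although HPGD averaged below PTGER4 in cows 6, 2 and 3. PTGER4, the prostaglandin E2 receptor EP4, stood at 0.827, 0.964 and 1.51 FPKM in CON, 0.550, 0.456 and 1.61 in PA, 0.556, 1.85 and 1.87 in OA, and 0.655, 0.809 and 1.75 in MIX at day 4, for cows 4, 5 and 6. The groups overlapped, and only 18 to 77 reads per library lay behind these values. OA differed from PA by 0.73 ± 0.30 on the log2 scale, a value that moved between 0.14 and 1.12 when single cows or libraries were left out.

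At day 7 PTGER4 stood at 2.75, 4.83 and 2.61 FPKM in CON, 2.64, 3.98 and 1.09 in PA, 4.25, 3.74 and 2.66 in OA, and 2.69, 3.31 and 1.77 in MIX, for cows 1, 2 and 3. PA and MIX were below CON in 3 of 3 cows, and the groups overlapped. The log2 differences from CON were -0.35 ± 0.17 for PA and -0.28 ± 0.17 for MIX (limma, cow as a block, adjusted p = 0.998 and 1.00). PTGER2 had at most 18 reads per library at day 7 and did not reach the level needed for the test there. Its day 4 differences from CON had standard errors of 0.59 to 0.63, so a difference in PTGER2 was not detectable at this depth.

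HPGD, which breaks prostaglandins down, differed by cow far more than by treatment. Over the 4 treatments it lay at 10.2 to 11.9 FPKM in cow 4, 0.740 to 1.42 in cow 5 and 0.236 to 0.699 in cow 6. At day 7 it lay at 14.7 to 17.7 FPKM in cow 1, 0.128 to 0.273 in cow 2 and 0.546 to 1.00 in cow 3. At each day 1 cow was above 10 FPKM in all 4 of its libraries and the other 2 cows stayed below 1.5 FPKM. In cow 2 the value rested on 4 to 11 reads per library.

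The HPGD value of MIX lay above that of CON in 3 of 3 cows at both days, by 0.36 ± 0.20 at day 4 (edgeR, cow as a block, adjusted p = 0.994) and by 0.18 ± 0.10 at day 7 (limma, cow as a block, adjusted p = 1.00). These sizes are on unlike scales, since limma on log2(FPKM + 1) understates changes of low genes. The MIX to CON ratio of FPKM within a cow ran from 1.12 to 2.96 at day 4 and from 1.19 to 1.44 at day 7. The cows with much HPGD also had the lowest summed level of the 13 preadipocyte and fibroblast markers and of the 8 smooth muscle and myofibroblast markers of their day. The fibroblast list summed to 7459 to 8768 FPKM in cow 4 and 21196 to 25449 in cows 5 and 6. It summed to 13739 to 18469 FPKM in cow 1 and 21518 to 33807 in cows 2 and 3. In it 10 of 13 markers reached 1 FPKM in a library, and DLK1 was at 0 in all 24. The smooth muscle list summed to 458 to 590 FPKM in cow 4 and 1171 to 3604 in cows 5 and 6, and to 2316 to 2714 in cow 1 and 6404 to 7272 in cows 2 and 3. The part of these cell populations in the HPGD level was not tested.

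How much of a gene's spread lay between cows and how much between treatments was read from the sums of squares of log2 expression. At day 4 treatment took 55.1% of the PTGS2 sum of squares and cow 36.4%, whereas the median of 13580 genes had 3.43% for treatment and 86.3% for cow. The treatment share of PTGS2 includes the OA libraries that were in view when the genes were picked. PLA2G4A and PTGER4 followed with 18.3% and 14.0% for treatment and 44.8% and 63.1% for cow. In both the remainder was larger than the treatment share, and these shares were not tested. For PTGS1 and HPGD cow took 96.2% each.

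At day 7 cow took 95.5% of the PTGS2 sum of squares and treatment 2.83%, beside medians of 78.0% and 6.55% over 12615 genes. HPGD was the extreme, with 99.6% for cow and 0.176% for treatment. PTGER4 had 20.9% for treatment and 60.3% for cow. PTGES3 had 7.14% for cow and 19.3% for treatment, on a total spread of 2.03 FPKM (SD). Most of the PTGES3 sum of squares thus lay in the remainder, outside both cow and treatment.

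**Figure D4:**
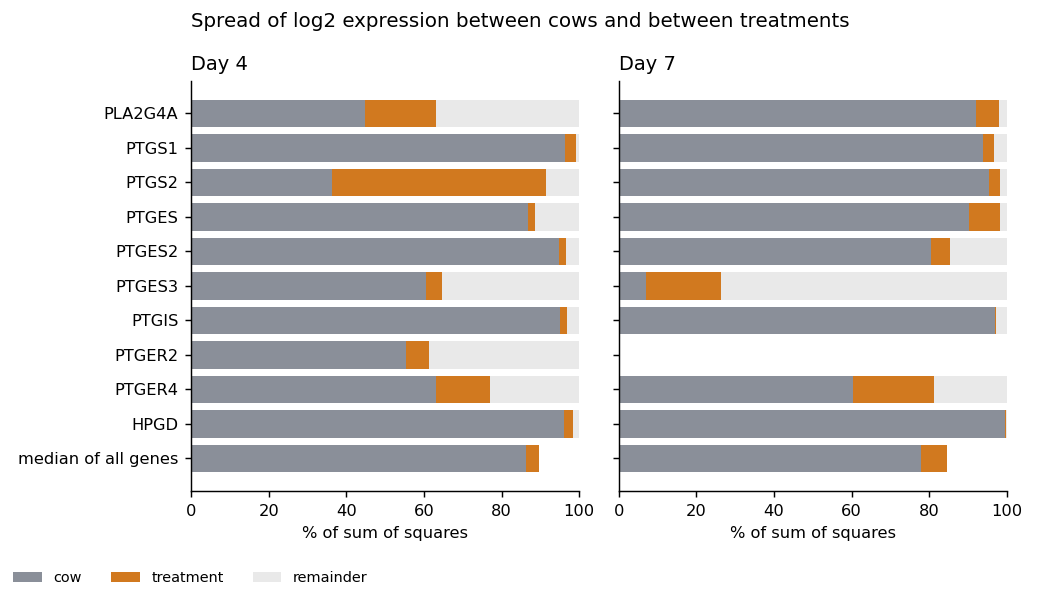
Percent of each gene's sum of squares of log2 expression that lies between cows (grey), between treatments (orange) and in the remainder (pale) at day 4 (left) and day 7 (right), with the median over all tested genes in the last row, drawn without a remainder. PTGS2 at day 4 has 55.1% between treatments, against 3.43% for the median gene. That share includes the OA libraries that were in view when the genes were picked, so nothing is read from it. PTGER2 was not tested at day 7.

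Without cow in the model, no member passed an adjusted p of 0.05 in any of the 6 day 4 comparisons (edgeR, 10 members), where 0.0% of the 13580 genes passed. At an unadjusted p under 0.05 there were 0 members in the other 4 comparisons and 1, PTGS2, in OA against CON and in OA against PA, beside 0.177% and 0.169% of genes in these 2. With cow as a block, 1 member, PTGS2, passed in OA against CON, where 0.0736% of genes passed, and in OA against PA, where 0.221% passed. Nothing is read from the counts in these comparisons, since the PTGS2 difference was in view when the genes were picked. As a limit, leaving out cow 5 brought both counts to 0, and leaving out cow 4, or its CON or OA library alone, brought the count in OA against CON to 0. Leaving out cow 6 added PTGS1 in OA against PA, where 199 of 13625 genes were then called.

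In the other 4 day 4 comparisons with the block, 0 of 10 members passed, beside 0.0% of genes. The unadjusted p was under 0.05 for PTGS2 in each of the 3 comparisons of MIX and for no member in PA against CON, and for 2.97% to 3.48% of genes. DESeq2 with the block called the same numbers of members as edgeR in all 6 comparisons. Limma on log2(FPKM + 1) with the block called 0 of 9 in each of the 6. Without cow 6, PTGS2 was called in MIX against CON and in MIX against PA, for which the share of all genes called is not given here. In OA against CON and OA against PA, leaving out cow 6 raised the genes called from 10 to 74 and from 30 to 199. Each of the 4 comparisons shares CON, PA or OA libraries that were in view, so nothing is read from the PTGS2 counts.

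At day 7, 0 of 9 members passed in the 6 comparisons with or without the block (limma), beside 0.0% of 12615 genes. With the block, 3 of 9 members had an unadjusted p under 0.05 in OA against PA and 4 of 9 in MIX against OA, beside 11.5% and 10.4% of genes. These were PTGS2, PLA2G4A and PTGER4 in the former, each with the higher value in OA, and PTGS1, PTGS2, PTGES and PLA2G4A in the latter, each with the higher value in OA. Both comparisons share the OA libraries. In each of the other 4 comparisons there were 0 to 2, beside 3.41% to 9.27% of genes. Without the block there were 0 in each of the 6, beside 0.381% to 0.690% of genes. On recovered reads, edgeR with the block also called 0 of 10 members, while it called 0 to 8 of 13658 genes. Over the members the median log2 difference was 0.15 in OA against PA and -0.25 in MIX against OA, beside medians of 0.01 and -0.00 over all genes.

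**Figure D5:**
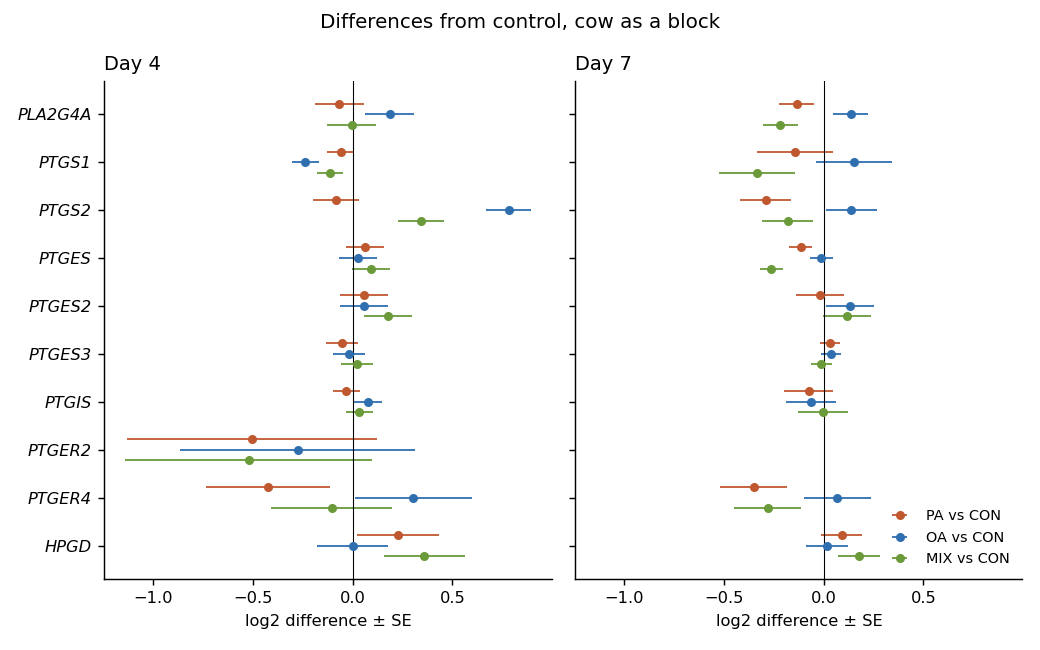
Log2 difference from CON with its standard error for PA, OA and MIX at day 4 (left, edgeR) and day 7 (right, limma on log2(FPKM + 1)), cow as a block. PTGS2 in OA at day 4 stands farthest from zero, at 0.78 ± 0.11, a difference that was in view when the genes were picked. PTGER2 was not tested at day 7.

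Whether a treatment difference changed between days was tested on 9 members with limma on log2(FPKM + 1). The OA difference of PTGS2 from CON was smaller at day 7 than at day 4 by a log2 value of -0.59 ± 0.19, and the MIX difference by -0.51 ± 0.19 (cow as a block, adjusted p = 0.835 and 0.979). The OA difference of PTGS1 from CON was larger at day 7 by 0.38 ± 0.21 (adjusted p = 0.919), being negative at day 4. The MIX difference of PTGES moved by -0.36 ± 0.11 (adjusted p = 0.979). With and without the block 0 of 9 members passed in the 4 comparisons, beside 0.0% of 12132 genes, with 0 to 2 members at an unadjusted p under 0.05 with the block, beside 4.44% to 6.91% of genes, and 0 without. The day 4 side of these differences was in view when the genes were picked, and the cows differed between days. Nothing is therefore read from the smaller PTGS2 differences at day 7.

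The genes whose levels ran most like PTGS2 at day 4 were sought among 11906 genes, over 12 libraries after subtracting each cow's mean. They were CCL2, a monocyte-attracting chemokine, with Pearson r = 0.97, the chaperone HSP90AB1 and the tetraspanin CD9, both with 0.95, and IL1R2, the decoy receptor of interleukin 1, and XIRP1, an actin-binding protein, both with 0.94. The 12 libraries share 3 cows and 4 treatments, and the OA libraries that were in view enter each r. The log2 difference of OA from CON was 0.43 ± 0.07 for CCL2, 0.34 ± 0.09 for IL1R2 and 0.45 ± 0.10 for XIRP1, but 0.14 ± 0.06 for HSP90AB1 and 0.14 ± 0.06 for CD9. Over the 12 day 7 libraries r with PTGS2 was 0.40 for CCL2, 0.60 for HSP90AB1, 0.66 for CD9 and 0.11 for IL1R2.

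Among the members, PLA2G4A ran most like PTGS2 at both days, with r = 0.78 at day 4 and 0.77 at day 7. Its day 4 r exceeded that of 98.8% of genes, and the OA libraries that were in view enter it. The OA to CON ratio of PLA2G4A at day 4 was 1.49 in cow 4, 1.03 in cow 5 and 0.965 in cow 6. PTGS1 ran against PTGS2 at day 4, with r = -0.83, and with it at day 7, with r = 0.54. PTGER4 had r = 0.42 and 0.68. PTGS2 and PLA2G4A are also neighbours on chromosome 16, where the deposited table places PTGS2 (ENSBTAG00000014127) at 67728006 to 67735629 on the minus strand and PLA2G4A (ENSBTAG00000013298) at 67906979 to 68081283 on the plus strand. The 171349 bases between them hold no other gene of the table. Whether their position bears on their likeness was not tested. PTGS1 (ENSBTAG00000006716) lies on chromosome 11 at 93236273 to 93262107, and PTGES and PTGES2 lie farther along that chromosome. No source used here names the genome build of these positions.

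A wider list of eicosanoid genes gave the setting of the 10. It held 71 gene symbols, with some genes under both an older and a newer name. Of these symbols, 62 were found under 1 identifier, and 36 averaged 1 FPKM or more at each day. None of the 47 tested at day 4 or the 37 tested at day 7 passed in either direction in the 6 comparisons, with edgeR or limma, with or without the block. With the block, 1 to 4 of 47 at day 4 and 1 to 6 of 37 at day 7 had an unadjusted p under 0.05, beside 2.97% to 6.94% of all genes at day 4 and 3.41% to 11.5% at day 7. In OA against CON at day 4, 19 of 47 lay above zero and 28 below, with a median of -0.03 beside -0.01 over all genes. In OA against PA 24 lay above and 23 below, with a median of 0.01 beside -0.00. At day 7, 11 of 37 lay above zero and 26 below in MIX against OA, with a median of -0.05 beside -0.00.

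The gene of the wider list nearest to the threshold was FADS2, the delta-6 desaturase on the route to arachidonic acid, named after its values were seen. It averaged 8.17 FPKM at day 4 and differed by 0.68 ± 0.15 between OA and CON in edgeR with cow as a block, which did not call it. DESeq2 with the block called it in that comparison and no other gene of the list, and edgeR with the block and no filter on low counts called it alone against both CON and PA. It was picked out of a comparison that was in view.

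Genes of the other roles are given by their levels and differences. ANXA1, an inhibitor of phospholipase action, averaged 378 FPKM at day 4 and 206 at day 7, and its OA difference from CON was -0.04 ± 0.06 and 0.06 ± 0.06. Among synthases, AKR1B1, which can make prostaglandin F2α, averaged 59.7 and 72.4 FPKM, with OA differences from CON of -0.09 ± 0.07 and 0.06 ± 0.07. ACSL4, the ligase that activates arachidonic acid for storage in phospholipids, averaged 71.5 and 57.8 FPKM, and ELOVL5, a fatty acid elongase, 82.8 and 56.9 FPKM. None of these passed the test.

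Among receptors, PTGDR, the prostaglandin D2 receptor, averaged 4.08 ± 0.761 FPKM at day 4 and 22.9 ± 16.3 at day 7 (SD, n = 12), above both PTGER2 and PTGER4. Its OA difference from CON was 0.40 ± 0.14 at day 4 and 0.17 ± 0.17 at day 7 (limma, cow as a block, adjusted p = 0.805 at day 7). PTGFR, the prostaglandin F receptor, averaged 3.59 ± 1.98 and 4.00 ± 3.40 FPKM. In the leukotriene branch, LTC4S, the leukotriene C4 synthase, ran from 1.06 to 8.98 FPKM at day 4 and from 0.509 to 394 FPKM at day 7. Its OA difference from CON was 0.59 ± 0.24 at day 4 and 0.75 ± 0.42 at day 7, and its OA difference from PA at day 7 was 0.97 ± 0.42 (limma, cow as a block, adjusted p = 0.613 and 0.425 for the day 7 values). The day 4 differences are on counts and the day 7 differences on log2(FPKM + 1), so their sizes are not compared.

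In the authors' deposited table of day 4 comparisons, no gene had an adjusted p under 0.05. The authors' deposited table gives PTGS2 a log2 fold change of -0.760 for control over OA and of 0.836 for OA over PA. In the authors' deposited table these were the 2 of 58 values given for the 10 genes whose unadjusted p was under 0.05, and both belong to the comparisons that were in view.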

How the data were processed

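The members and the gene lists were chosen with earlier results of these data known. The authors deposited, for day 4, a raw count per gene and library and FPKM relative to a library size they scaled. The deposited day 4 table also holds the authors' log2 fold change, p-value and adjusted p-value for 6 comparisons. The deposited day 7 table has only FPKM. The submitters' processing notes name FastQC 0.11, StringTie 1.3.3b and featureCounts 1.5.0-p3, without their roles. The aligner, the build, the strand setting and the handling of reads shared between genes are not given there.

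Day 4 counts passed filterByExpr (13580 genes), were TMM-scaled and went through edgeR quasi-likelihood tests on 4 group means. Limma-trend on log2(FPKM + 1), which understates changes of low genes, was used for day 7 (12615 genes with 3 libraries at 1 FPKM) and for the difference between days (12132 genes). P-values are two-sided, adjusted by Benjamini and Hochberg over all genes tested, with a threshold of 0.05. Whole reads were recovered from the day 7 FPKM steps for 100% of 196213 values above 0, within 0.01. Floors are 3 counts per library and cover counting error only.

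A cow number names 1 animal across the 4 groups of a day, so a fit with cow as a replicate block stands beside each test and gives the log2 differences and SE. The pairing was checked: over the 18 pairs of libraries from 1 cow, deviations from the group means had r = 0.757 to 0.912 at day 4 and 0.772 to 0.864 at day 7. Pairs from different cows had r of 0.04 or less and of -0.31 or less. These low values are partly built in, because deviations from a group mean cancel out within the group. Likeness and sums of squares at day 4 used log2 CPM with a prior count of 2. All 10 members are described; the 5 genes most like PTGS2 by Pearson r and the 2 most abundant genes of each role in the wider list could be named. Alternatives were DESeq2 (independent filtering off), limma at day 4, edgeR on recovered reads at day 7, a pseudocount of 0.1, no filter, a mean of 50 counts, 5 FPKM, and the removal of single cows and libraries. The tools were edgeR 4.0.16, DESeq2 1.42.0 and limma 3.58.1 in R 4.3.3, with figures from matplotlib 3.10.9 under Python 3.11.15, and the tests were tried on simulated data. Other doses, mixtures and antagonist arms of the design were not analysed here.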

Additional observations from a re-analysis of the deposited data

How the results depend on the processing

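Without cow in the model the count of members called was 0 in each of the 16 comparisons, under DESeq2, limma, recovered reads, other filters and another pseudocount alike. With cow as a replicate block the count was 1 (PTGS2) in OA against CON and in OA against PA at day 4 with edgeR, with DESeq2, with no filter and with a mean of 50 counts, but 0 with limma on log2(FPKM + 1). Both comparisons were in view when the genes were picked, so these calls support nothing. The block with no filter also gave 1 in MIX against PA and 1 in MIX against OA, which share PA and OA libraries that were in view. The block changed no other count of members.

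Leaving out cows or libraries gave counts of 0 to 1 in OA against CON, 0 to 2 in OA against PA, 0 to 1 in MIX against CON and 0 to 1 in MIX against PA at day 4, and 0 in the other 12 comparisons. At day 4 the log2 difference of PTGS2 in PA against CON ran from -0.14 to 0.034 without the block and from -0.23 to 0.046 with it, turning to 0.034 and 0.046 without cow 5, to 0.0039 without its PA library and to 9.04e-05 without the CON library of cow 6. That of PLA2G4A in OA against CON ran from -0.0093 to 0.28 without the block and from -0.014 to 0.29 with it, negative without cow 4. The genes called in OA against CON and in OA against PA with the block were 10 and 30 with edgeR, 18 and 44 with DESeq2, 52 and 117 with no filter and 0 and 3 with limma. They were 0 and 0 without cow 5 and 74 and 199 without cow 6. The cause of these differences was not tested. PTGER2, PTGER4 at day 4 and the HPGD of cows 2, 3, 5 and 6 rested on few reads, and depth limits their comparisons. At day 7 PTGER4 rested on 60 to 266 reads per library.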
